A study of Mus musculus with 6 samples.

Results

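The genes described here were 10 components of heterotrimeric G protein signalling, 6 alpha subunits (Gna12, Gna13, Gna15, Gnai2, Gnai3 and Gnaq) and 4 regulators of G protein signalling (Rgs1, Rgs2, Rgs10 and Rgs14), of 28773 genes in the expression files. Their Ensembl identifiers were ENSMUSG00000000149 for Gna12, ENSMUSG00000020611 for Gna13, ENSMUSG00000034792 for Gna15, ENSMUSG00000032562 for Gnai2, ENSMUSG00000000001 for Gnai3, ENSMUSG00000024639 for Gnaq, ENSMUSG00000026358 for Rgs1, ENSMUSG00000026360 for Rgs2, ENSMUSG00000030844 for Rgs10 and ENSMUSG00000052087 for Rgs14. They were picked by name with the differences between the groups of these same samples already known. Their differences between groups, and the calls that the fit over all genes made among them, are therefore given as a description and not as a test.

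RNA had been sequenced from CD8+ T cells of mouse spleens collected on day 35 after tumor inoculation, 3 samples from each of 2 groups. All mice carried a tumor and all received microwave ablation (MWA), which destroys tumor tissue by heating. MWA+PBS mice, the controls, were given the PBS vehicle after ablation, and MWA+2DG mice were given repeated intraperitoneal injections of 2-deoxy-D-glucose (2DG), a glucose analogue that inhibits glycolysis. The labels name no strain, age or batch, and the study's methods describe female mice. Sample numbers run from 1 to 3 for MWA+PBS and from 4 to 6 for MWA+2DG. The labels do not say that each sample was 1 mouse, so p-values measure the spread between these samples only. The treatment and a batch shared by all samples of 1 group cannot be told apart. The comparison asks which transcripts of CD8+ T cells from ablated mice differed when 2DG had been added.

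Levels are FPKM, fragment counts scaled by transcript length and by the mapped fragments of the library, so levels of different genes can be set side by side. Read counts and depth are unknown. FPKM totals ran from 291803 to 313257 per sample, and 12198 to 12515 genes per sample reached an FPKM of 1. Correlations of log2(FPKM + 1) between samples over the genes tested were 0.984 to 0.989 within groups and 0.934 to 0.943 between groups. Set against Cd4 alone, the CD8 T cell label held: Cd8a and Cd8b1, which encode the chains of the CD8 co-receptor, averaged 231.5 and 329.4 in MWA+PBS and 366.4 and 484.1 in MWA+2DG, against 2.75 and 1.66 for Cd4. Markers of other cells also differed between the groups. The summed FPKM of 14 monocyte and macrophage markers was 909.5 to 974.8 in MWA+PBS against 129.8 to 140.2 in MWA+2DG, and that of 12 neutrophil markers was 67 to 91.9 and 1596 to 1777. S100a9, a neutrophil marker, averaged 23.2 in MWA+PBS and 595.8 in MWA+2DG, there above Cd8a and Cd8b1.

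A G protein couples a seven-helix receptor at the membrane to enzymes and channels inside the cell. On receptor activation the alpha subunit exchanges GDP for GTP and separates from the beta and gamma subunits, and signalling ends when the alpha subunit hydrolyses its GTP. Alpha subunits of the Gi class restrain adenylyl cyclase and carry most chemokine receptor signals of T cells, those of the Gs class stimulate cyclic AMP synthesis, those of the Gq class activate phospholipase C beta, and those of the G12 class act through guanine nucleotide exchange factors. RGS proteins speed GTP hydrolysis on the alpha subunit and so shorten the signal. In lymphocytes they are known for setting the response to chemokines.

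Gnai2 was by far the most abundant of the 10 transcripts in both groups. Its mean level was 118.8 FPKM in MWA+PBS against 110.6 in MWA+2DG. In MWA+PBS the order of means after Gnai2 was Gnai3 (47.6), Rgs10 (29.1), Gna13 (26.1), Gna12 (23.8), Rgs14 (12.7), Rgs2 (11.2), Gna15 (7.30), Rgs1 (5.86) and Gnaq (3.43). The 3 values of Gna13 and Gna12 overlapped, as did those of Rgs14 and Rgs2 and those of Gna15 and Rgs1, so these 3 neighbouring pairs of the 9 were not separated by their spread. In MWA+2DG the upper 4 places were held by Gnai2, Gnai3 (48.7), Rgs10 (29.7) and Gna13 (23.4), and Rgs14 (14.8) followed. Below them stood Gna12 (6.63) and Rgs2 (5.85), then Gna15 (3.01), Rgs1 (2.18) and Gnaq (2.02), with overlapping values within the first pair and between neighbours of the last 3. The 2 orders differed in that Gna12 stood above Rgs14 in MWA+PBS and below it in MWA+2DG.

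**Figure D1:**
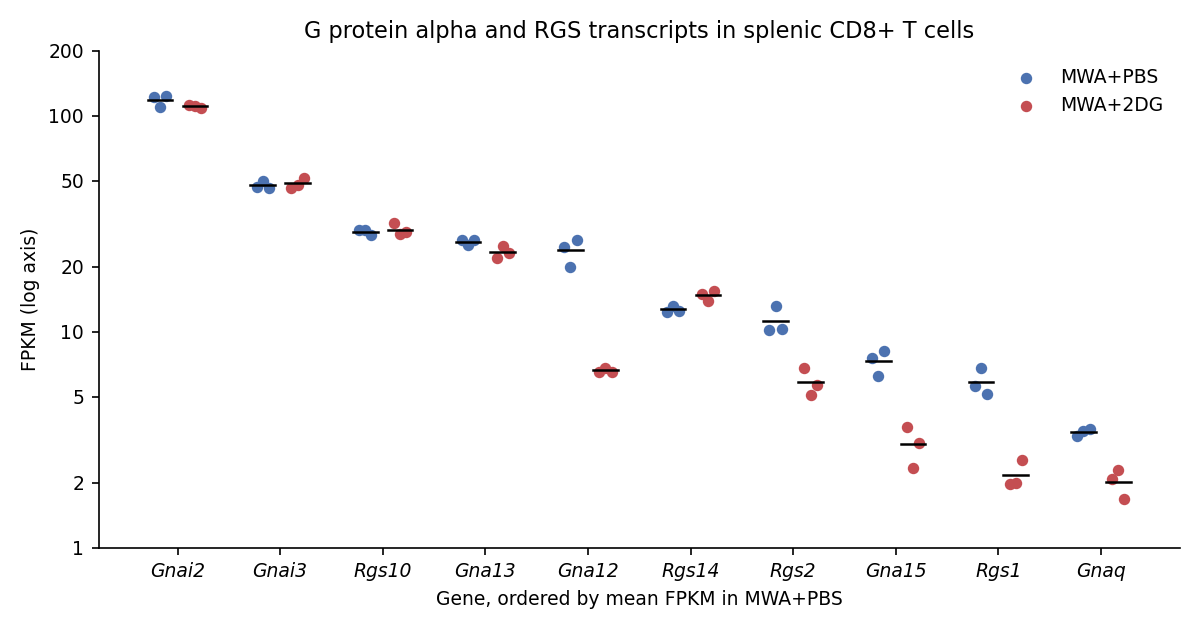
FPKM (log axis) of the 10 genes in each MWA+PBS (blue) and MWA+2DG (red) sample, with a black bar at each group mean, ordered by the MWA+PBS mean. Gnai2, Gnai3 and Rgs10 lie at nearly the same height in both groups, while the 3 Gna12 values lie at 19.96 to 26.6 in MWA+PBS against 6.53 to 6.81 in MWA+2DG.

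All 10 genes passed the filter of a mean FPKM of at least 1, as did 12444 genes in all. The fit was limma on log2(FPKM + 1), MWA+2DG minus MWA+PBS, with a call at a Benjamini-Hochberg adjusted p under 0.05, and it called 39.4% of all genes tested. Of the 10, it called 1 higher (Rgs14), beside 22.3% of all genes, and 5 lower (Gna12, Gna15, Gnaq, Rgs1 and Rgs2), beside 17.1%. The 4 not called were Gna13, Gnai2, Gnai3 and Rgs10. Since this contrast was known when the genes were picked, nothing is read from these counts. The median log2 fold change was -0.36 over the 10 genes and 0.05 over all genes tested. Groups did not overlap for 7 of the 10, beside 52.1% of all genes tested. The values in MWA+2DG were lower for 6 of these, beside 21.9% of all genes, and higher for 1, beside 30.2%. Among the alternative scalings, median ratio scaling sets the typical gene equal across samples, and T lineage scaling sets the level of 15 T lineage genes equal. In bulk RNA, fewer cells of a type and less RNA per cell cannot be told apart.

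Of the alpha subunit classes, G12 held the 2 members whose differences lay farthest apart. Gna12 encodes an alpha subunit that acts on guanine nucleotide exchange factors. Gna12 was at 24.8, 19.96 and 26.6 FPKM in MWA+PBS samples 1, 2 and 3 and at 6.53, 6.81 and 6.54 in MWA+2DG samples 4, 5 and 6. The MWA+2DG values lay close together, far below the lowest MWA+PBS value, which was that of sample 2. The means were 23.8 ± 3.45 and 6.63 ± 0.159 (SD, n = 3 per group), a 3.59-fold lower level, with a log2 fold change of -1.69 ± 0.10 (SE). Gna13, its close relative with the same class of effectors, was at 26.6, 25.1 and 26.6 FPKM in MWA+PBS and at 22.1, 24.9 and 23.3 in MWA+2DG. Its groups were separated only narrowly, by the gap between MWA+PBS sample 2 and MWA+2DG sample 5. The means were 26.1 ± 0.889 and 23.4 ± 1.42 (SD, n = 3 per group), with a log2 fold change of -0.15 ± 0.06 (SE). Gna13 was not called, but it was called lower with median ratio scaling (-0.20), sample weights (-0.19) and T lineage scaling (-0.59). Gna12 made up 44.3 to 50% of the summed FPKM of the pair in MWA+PBS against 21.5 to 22.8% in MWA+2DG. The pair total was 49.9 ± 4.32 and 30 ± 1.56 FPKM (SD, n = 3 per group).

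Exons of Gna12 overlap Amz1 on the opposite strand in the GENCODE M21 annotation, and those of Gna13 overlap the antisense gene Gm11696. Amz1 was at 1.66, 1.52 and 1.98 FPKM in MWA+PBS and 0.62, 0.55 and 0.48 in MWA+2DG, and it was called lower (log2 fold change -0.81, limma, Benjamini-Hochberg adjusted p = 0.00093). Gm11696 averaged 1.24 ± 0.175 and 1.52 ± 0.132 FPKM (SD, n = 3 per group) and was not called (limma, adjusted p = 0.214). The libraries marked strand, but the use of strand in counting was not given in the sources used here. Reads of each pair in the overlap therefore cannot be told apart. Amz1 stayed far below Gna12 in every sample.

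In the Gq class, Gna15 and Gnaq were lower in MWA+2DG, and the third expressed member, Gna11, was not called. Gna15 encodes the alpha subunit of hematopoietic cells that accepts many kinds of receptor. Gna15 was at 7.53, 6.25 and 8.13 FPKM in MWA+PBS and at 3.62, 2.34 and 3.07 in MWA+2DG. All MWA+2DG values lay below all MWA+PBS values, sample 2 was again the lowest of its group, and the MWA+2DG samples spread more among themselves than for Gna12. The means were 7.30 ± 0.96 and 3.01 ± 0.642 (SD, n = 3 per group), a 2.43-fold lower level, with a log2 fold change of -1.06 ± 0.14 (SE). Gnaq, which encodes the widely expressed Gq alpha subunit, was the least abundant of the 10 in MWA+PBS, at 3.29, 3.47 and 3.54 FPKM in MWA+PBS and 2.09, 2.30 and 1.68 in MWA+2DG. Its groups did not overlap either, and in MWA+2DG it overlapped Rgs1, which was lower in samples 4 and 5. The means were 3.43 ± 0.129 and 2.02 ± 0.315 (SD, n = 3 per group), a 1.70-fold lower level, with a log2 fold change of -0.56 ± 0.10 (SE). On the log2(FPKM + 1) scale the change of a gene at this level is understated, and with a pseudocount of 0.1 the log2 fold change of Gnaq was -0.75. Gna11, not one of the 10, averaged 6.95 ± 0.39 and 7.16 ± 0.228 FPKM (SD, n = 3 per group) and was not called (limma, adjusted p = 0.664), but it was called lower with T lineage scaling (-0.39, adjusted p = 0.00177). Gna11 thus held 37.8 to 39.2% of the summed FPKM of the Gq class in MWA+PBS against 55.8 to 60% in MWA+2DG, while Gna15 held 37.4 to 42% and 19.5 to 27.5%.

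The Gi class carried the highest levels and the smallest differences among the 6 alpha subunits. Gnai2 encodes the main Gi alpha subunit of lymphocytes, through which chemokine and sphingosine 1-phosphate receptors signal. Gnai2 was at 122.4, 109.9 and 124.1 FPKM in MWA+PBS and at 111.9, 111.3 and 108.6 in MWA+2DG. The groups overlapped, since MWA+PBS sample 2 lay below MWA+2DG samples 4 and 5. The means were 118.8 ± 7.77 and 110.6 ± 1.74 (SD, n = 3 per group), with a log2 fold change of -0.10 ± 0.06 (SE). Gnai3, a Gi alpha subunit found in most tissues, was at 46.6, 49.8 and 46.5 FPKM in MWA+PBS and at 46.5, 48.0 and 51.7 in MWA+2DG. The groups overlapped, and only MWA+2DG sample 6 lay above every MWA+PBS value. The means were 47.6 ± 1.86 and 48.7 ± 2.69 (SD, n = 3 per group), with a log2 fold change of 0.03 ± 0.06 (SE), whose sign was negative with median ratio scaling (-0.0189) and without MWA+2DG sample 6 (-0.0115). Gnai2 made up 68.8 to 72.7% of the pair in MWA+PBS against 67.8 to 70.7% in MWA+2DG, with overlapping values.

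Over the alpha subunits of the 4 classes, the summed FPKM was 263.7 ± 12 in MWA+PBS against 226.7 ± 2.04 in MWA+2DG (SD, n = 3 per group). The Gi class made up 62.8 to 64% of it in MWA+PBS against 69.8 to 70.6% in MWA+2DG, the G12 class 18 to 19.6% and 12.7 to 13.9%, and the Gq class 6.68 to 7.11% and 5.22 to 5.87%. The Gs class, almost all of it Gnas, made up 10.5 to 11.3% and 10.8 to 11%. Shares within a sample do not depend on how the sample was scaled. Gna12 and Gna15 lost share, whereas Gnai2 and Gnai3, whose groups overlapped in FPKM, took a larger share of a smaller total.

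**Figure D2:**
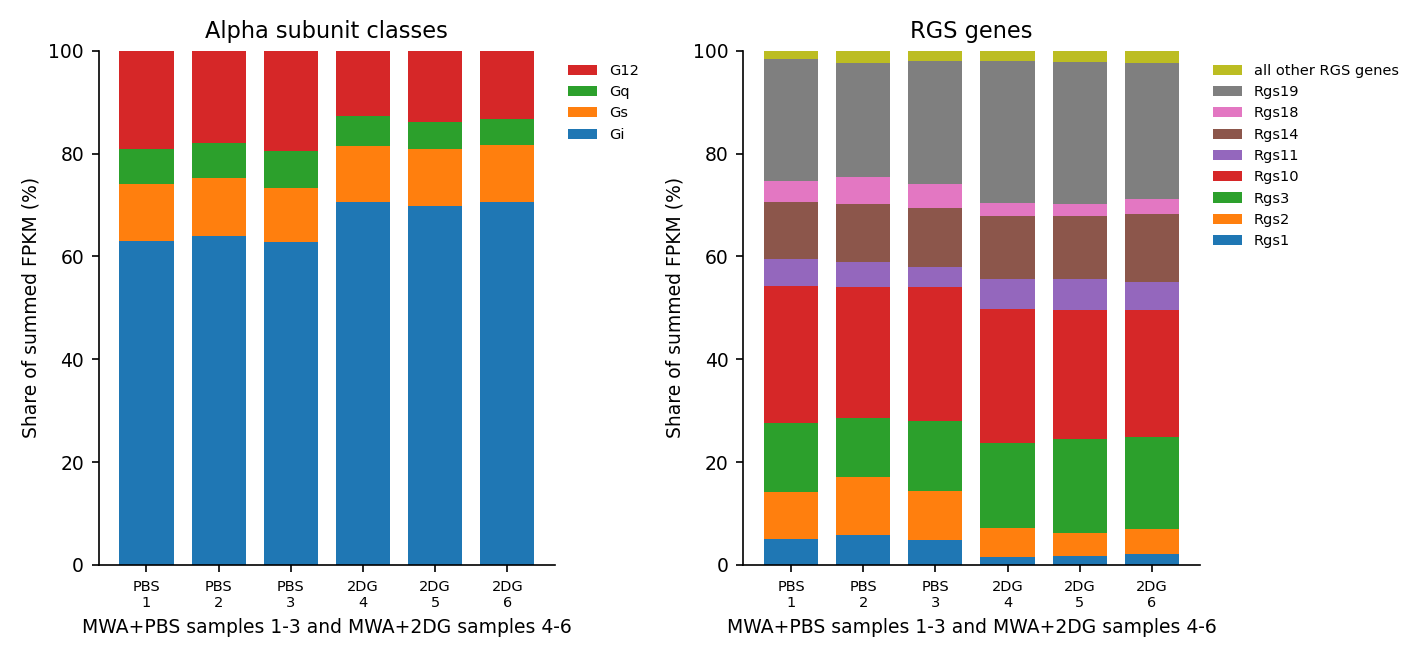
Share (%) of each alpha subunit class in the summed FPKM of alpha subunits (left) and of each RGS gene in the summed FPKM of RGS genes (right), for samples 1 to 3 of MWA+PBS and 4 to 6 of MWA+2DG. The G12 band is narrower in all 3 MWA+2DG samples (12.7 to 13.9%) than in the MWA+PBS samples (18 to 19.6%), and so are the Rgs1 and Rgs2 bands.

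Among the RGS genes, Rgs1 and Rgs2 were lower in MWA+2DG, Rgs14 was slightly higher and the groups overlapped for Rgs10. Rgs1 encodes a regulator of Gi and Gq subunits that is induced on lymphocyte activation and restrains migration toward chemokines. Rgs1 was at 5.60, 6.82 and 5.17 FPKM in MWA+PBS and at 1.98, 2.00 and 2.56 in MWA+2DG. All MWA+2DG values lay below all MWA+PBS values, and sample 2, low for Gna12 and Gna15, was the highest of its group here. The means were 5.86 ± 0.856 and 2.18 ± 0.329 (SD, n = 3 per group), a 2.69-fold lower level, with a log2 fold change of -1.11 ± 0.11 (SE). Rgs2, which encodes a regulator with a preference for Gq, was at 10.2, 13.1 and 10.3 FPKM in MWA+PBS and at 6.79, 5.08 and 5.69 in MWA+2DG. Sample 2 again was the highest, and the groups did not overlap. The means were 11.2 ± 1.65 and 5.85 ± 0.867 (SD, n = 3 per group), a 1.91-fold lower level, with a log2 fold change of -0.83 ± 0.12 (SE).

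Rgs10 encodes a small regulator of Gi subunits that is abundant in immune cells. Rgs10 was at 29.4, 29.7 and 28.1 FPKM in MWA+PBS and at 31.8, 28.3 and 28.9 in MWA+2DG. The groups overlapped, and only MWA+2DG sample 4 lay above every MWA+PBS value. The means were 29.1 ± 0.864 and 29.7 ± 1.85 (SD, n = 3 per group), with a log2 fold change of 0.03 ± 0.06 (SE), and the sign was negative with median ratio scaling (-0.0215) and without MWA+2DG sample 4 (-0.0209). Rgs14 encodes a scaffold with an RGS domain and a GoLoco motif that bind Gi subunits, and Ras-binding domains. Rgs14 was at 12.4, 13.2 and 12.5 FPKM in MWA+PBS and at 15.0, 13.9 and 15.4 in MWA+2DG. The groups did not overlap, but MWA+2DG sample 5 lay close to MWA+PBS sample 2. The means were 12.7 ± 0.46 and 14.8 ± 0.747 (SD, n = 3 per group), a 1.16-fold higher level, with a log2 fold change of 0.20 ± 0.06 (SE), which was -0.23 when samples were scaled to T lineage genes. The call of Rgs14 was lost with median ratio scaling (log2 fold change 0.16) and when MWA+PBS sample 1 (0.19), MWA+PBS sample 3 (0.19), MWA+2DG sample 4 (0.19) or MWA+2DG sample 6 (0.18) was left out.

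The 4 RGS genes were read beside the other RGS transcripts. The summed FPKM of RGS genes was 111.7 ± 4.56 in MWA+PBS against 117.1 ± 4.91 in MWA+2DG (SD, n = 3 per group), with overlapping values, while its makeup differed. Rgs1 held 4.81 to 5.86% of it in MWA+PBS against 1.62 to 2.19% in MWA+2DG, and Rgs2 held 9.15 to 11.2% and 4.52 to 5.56%. Rgs10 held 25.5 to 26.5% and 24.7 to 26%, which overlapped. Rgs14 held 11.1 to 11.6% and 12.3 to 13.2%. Of the other RGS genes tested, 3 of 5 were called higher, 1 was called lower and 1, Rgs11, was not called (limma, adjusted p = 0.0569). Over all genes tested, 22.3% were called higher and 17.1% lower. Rgs3, a regulator of Gi and Gq signalling, rose from 14.3 ± 0.857 to 20.5 ± 0.332 FPKM (SD, n = 3 per group), a log2 fold change of 0.49 (limma, Benjamini-Hochberg adjusted p = 0.000567), a call lost with T lineage scaling (0.0605, adjusted p = 0.4). Rgs19 rose from 26.1 ± 0.283 to 31.9 ± 1.53 FPKM (SD, n = 3 per group), a log2 fold change of 0.28 (adjusted p = 0.00528), but it was called lower (-0.15) with samples scaled to T lineage genes. Rgs18, which is known from platelets and other myeloid cells, fell from 5.13 ± 0.883 to 3.01 ± 0.421 FPKM (SD, n = 3 per group), a log2 fold change of -0.61 (adjusted p = 0.00683). Rgs16, an activation-induced regulator, averaged 0.797 ± 0.559 and 1.74 ± 0.222 FPKM (SD, n = 3 per group), a log2 fold change of 0.65 (adjusted p = 0.0385), and MWA+PBS sample 2 was at 1.44 against 0.52 and 0.43 in the other two. Its call was lost without MWA+PBS sample 1 (0.55) or 3 (0.51) or without any 1 MWA+2DG sample (0.70, 0.66 and 0.59), with T lineage scaling (0.22) and without the filter on low values (adjusted p = 0.101).

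MWA+PBS sample 2 took opposite places among the 10 genes. It was the lowest of its group for Gna12, Gna13, Gna15 and Gnai2 and the highest for Gnai3, Rgs1, Rgs2, Rgs10 and Rgs14. Over the samples left out in turn and the other scalings, filters and weights, apart from the pseudocount of 0.1 and the T lineage scaling, the log2 fold change ran from -1.81 to -1.61 for Gna12 and from -1.19 to -1.01 for Rgs1. It ran from -1.16 to -0.93 for Gna15, from -0.93 to -0.72 for Rgs2 and from -0.62 to -0.47 for Gnaq. Without MWA+PBS sample 2, Gnai2 was called lower (-0.16).

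The sequences before the start sites are shown for Gna12, Gna15 and Rgs2, of the 5 genes with the largest differences the ones that stand for the G12 subunit, the Gq subunit and the RGS gene. They are the 250 bases before the RefSeq start on build GRCm38.p6, read in the direction of transcription. The processing notes of the study name another build, mm9, for the reads. Of the 10 genes, 7 had an entry (not Gnai2, Rgs1 or Rgs14). Capitals mark GGGCGG, the GC box, and TGACG, the short form of the cyclic AMP response element, on either strand. The window of Gna12 lies at chr5:140830432-140830681 (minus strand), that of Gna15 at chr10:81524226-81524475 (minus strand) and that of Rgs2 at chr1:144004150-144004399 (minus strand).
Gna12: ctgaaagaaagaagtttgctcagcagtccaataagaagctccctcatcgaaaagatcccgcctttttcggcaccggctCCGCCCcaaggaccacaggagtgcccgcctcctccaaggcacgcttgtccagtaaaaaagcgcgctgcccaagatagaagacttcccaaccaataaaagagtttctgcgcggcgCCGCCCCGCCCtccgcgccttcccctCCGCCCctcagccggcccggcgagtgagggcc
Gna15: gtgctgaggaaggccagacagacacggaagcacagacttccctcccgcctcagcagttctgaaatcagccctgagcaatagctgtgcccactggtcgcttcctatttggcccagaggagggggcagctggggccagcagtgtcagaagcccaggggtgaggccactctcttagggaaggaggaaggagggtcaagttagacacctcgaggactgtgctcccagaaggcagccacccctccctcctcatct
Rgs2: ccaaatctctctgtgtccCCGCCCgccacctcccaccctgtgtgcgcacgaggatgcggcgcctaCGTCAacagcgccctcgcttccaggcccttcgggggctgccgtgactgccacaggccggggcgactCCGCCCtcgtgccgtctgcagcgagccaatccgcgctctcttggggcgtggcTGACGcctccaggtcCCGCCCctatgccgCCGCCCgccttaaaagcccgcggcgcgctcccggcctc

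The Gna12 window held GGGCGG 4 times, with 2 of the matches overlapping, and Rgs2 held GGGCGG 4 times and TGACG 2 times. The Gna15 window held neither. Both strands were searched, and in 32851 RefSeq windows of the same length GGGCGG occurred in 32.7% and TGACG in 17.8%. The full cyclic AMP response element TGACGTCA (1.55% of all windows), the AP-1 site TGACTCA (4.46%), the heat shock element core GAANNTTC (6.69%) and the CArG box (1.47%) were in none of the 7 windows. Among the remaining windows, Gnaq held GGGCGG 4 times, Gna13 and Rgs10 held it 2 times each, and Gnai3 had no match. GC content was 61.2% for Gna12, 60.4% for Gna15 and 72.4% for Rgs2, beside a median of 52.4% over all windows. These matches describe the letters in the window only.

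Beside the 5 lower genes, marker lists of other cell types differed between the groups in both directions. All 14 monocyte and macrophage markers tested were called lower, and their summed FPKM in MWA+PBS was 6.92 times that in MWA+2DG, compared with 3.59 for Gna12, 2.69 for Rgs1 and 2.43 for Gna15. C1qa, a macrophage complement gene, averaged 130.1 ± 7.43 and 20.2 ± 1.84 FPKM (SD, n = 3 per group). All 9 erythroid markers were called lower as well, with sums of 221.2 to 254.6 and 49.8 to 67, and 3 of 5 platelet markers, with sums of 17.4 to 23.1 and 8.93 to 11.8. All 9 B cell markers (sums of 11.1 to 12.3 and 57 to 62.9) and 11 of 12 neutrophil markers were called higher. All 8 CD8 T cell markers were called higher too, with sums of 1047 to 1089 and 1508 to 1593. With T lineage scaling 3 of 8 were. All 8 are among the genes whose level that scaling sets equal, so the loss of calls was built in. Of CD4 T cell markers 2 of 4 were called lower (10.4 to 10.8 and 8.04 to 8.56), of plasma cell markers 1 of 5 higher and 2 lower (81.2 to 89.3 and 43 to 46.2), of dendritic cell markers 2 of 3 lower (27.6 to 33.6 and 26.9 to 31.5) and of NK cell markers 1 of 2 higher and 1 lower (30.4 to 32.3 and 50.8 to 54.5). The NK cell marker called higher was Eomes, which CD8 T cells also express and which averaged 22.8 and 45.6 FPKM, and Ncr1 averaged 6.54 and 4.92. Most of the dendritic cell sum was Bst2, which averaged 20.9 and 24.9 FPKM and was not called. The 2 dendritic cell markers called lower were Flt3 (2.82 and 0.617) and Itgax (4.49 and 1.75). With T lineage scaling, 3 of 4 CD4 T cell, 3 of 5 plasma cell, 5 of 5 platelet and 1 of 12 neutrophil markers were called lower. No marker of these lists was at 0 in every sample of a group. The part of these cells in the levels of Gna12, Gna15, Gnaq, Rgs1 and Rgs2 was not tested.

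Scaling each sample to 15 genes of the T lineage lowered every log2 fold change by 0.432 and the median of all genes from 0.05 to -0.39. On that scale the log2 fold changes were -2.12 for Gna12, -1.54 for Rgs1, -1.49 for Gna15, -1.26 for Rgs2 and -0.99 for Gnaq. Those of Gna13 (-0.59), Gnai2 (-0.53), Gnai3 (-0.40) and Rgs10 (-0.40) lay below the shifted median, and Rgs14 (-0.23) lay above it. The fit then called all 10 lower, beside 69.2% of all genes tested, with 3.78% called higher. The order of the 10 genes by difference is the same on both scales, since the shift is common to all.

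Rgs1 and Rgs2 are known as early response genes, and 28 of 30 immediate early genes were tested beside them. Of these, 4 were called higher, 17 were called lower and 7 were not called, with a median log2 fold change of -0.52 against 0.05 over all genes, of which 17.1% were called lower. With T lineage scaling 24 were called lower and the other 4 were not called. Their summed FPKM was 878.5 to 943.7 in MWA+PBS against 504.4 to 523.4 in MWA+2DG. Jun, a subunit of AP-1, fell from 76.3 ± 3.14 to 7.57 ± 0.85 FPKM (SD, n = 3 per group), a log2 fold change of -3.18 (limma, Benjamini-Hochberg adjusted p = 3.56e-07). Fosb fell from 22.9 ± 1.49 to 1.88 ± 0.318 (SD, n = 3 per group), a log2 fold change of -3.06 (adjusted p = 8.54e-07) and Fos from 103 ± 5.92 to 15.8 ± 0.662 (SD, n = 3 per group), a log2 fold change of -2.63 (adjusted p = 2.69e-07). The part of this response in the levels of Rgs1 and Rgs2 was not tested.

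**Figure D3:**
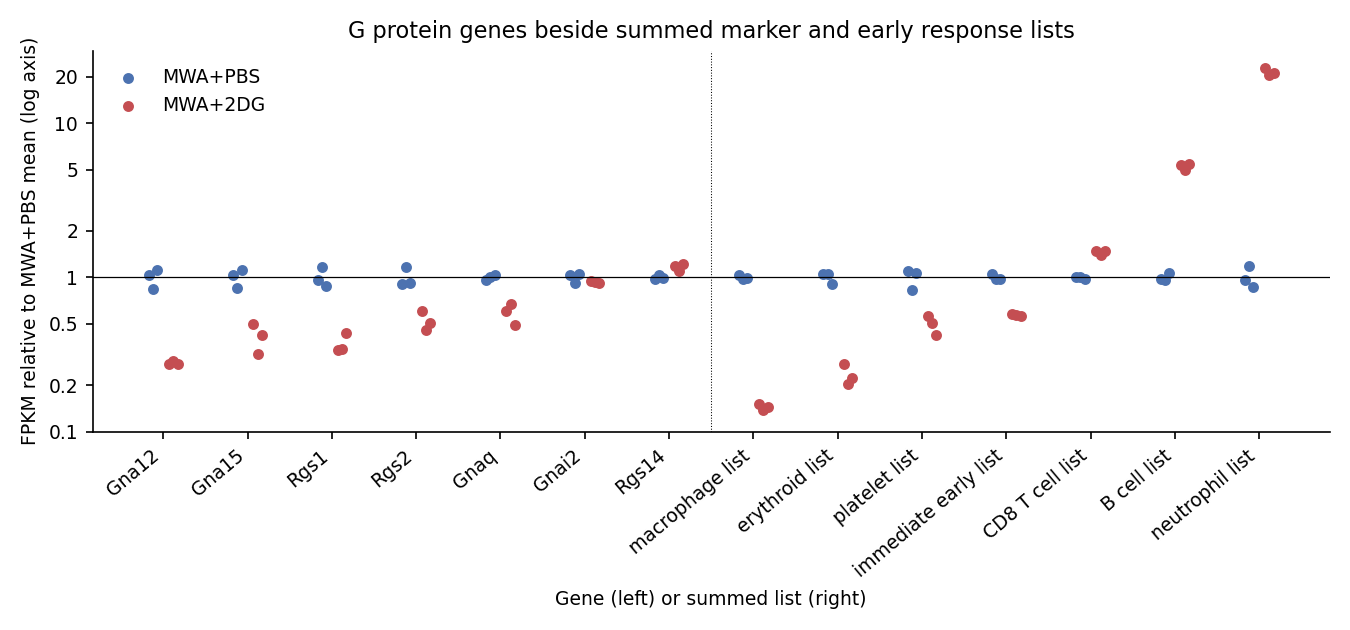
FPKM of 7 of the genes (left of the dotted line) and summed FPKM of marker and immediate early lists (right), each divided by its MWA+PBS mean, on a log axis, per sample of MWA+PBS (blue) and MWA+2DG (red). The MWA+2DG points of Gna12, Gna15, Rgs1, Rgs2 and Gnaq lie below 1, as do those of the macrophage, erythroid, platelet and immediate early lists, while Gnai2 lies near 1 and the neutrophil list above 20.

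The genes nearest to Gna12 by profile, by root mean square distance of log2(FPKM + 1) after centring each gene on its mean over the 6 samples, were Fn1 (distance 0.0523, Pearson r 0.999), Asb2 (0.0645, 0.999) and Adgrg1 (0.069, 0.998). Fn1, which encodes fibronectin, averaged 16.6 FPKM in MWA+PBS against 4.6 in MWA+2DG. Those nearest to Rgs1 were Tfec (distance 0.0526, Pearson r 0.997), Dnaja1 (0.0563, 0.995) and Pmaip1 (0.0604, 0.999). Dnaja1 encodes an HSP40 co-chaperone and averaged 59.9 and 27 FPKM. Each r is over 6 samples in 2 groups that stand apart, and all genes share the libraries.

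The rest of the pathway was followed in lists of 131 other genes, of which 124 were in the files and 83 were tested. Of the 83, 28 were called higher, 21 were called lower and 34 were not called, which is 59% called beside 39.4% of all genes. Over all genes tested, 22.3% were called higher and 17.1% lower, and the counts by role below, in short lists, stand beside these shares. The median log2 fold change was 0.04. With samples scaled to T lineage genes, 10 were called higher and 58 lower, beside 3.78% and 69.2% of all genes tested. The count called lower was thus near the share over all genes. The 10 were 7 of 16 receptors coupled to Gi, 2 of 6 receptors of the Gq and G12 classes and 1 of 15 genes of the cyclic AMP pathway. The 58 included 2 of 2 other alpha subunits, 2 of 5 other RGS genes, 6 of 8 beta and gamma subunits and 12 of 15 effectors.

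**Figure D4:**
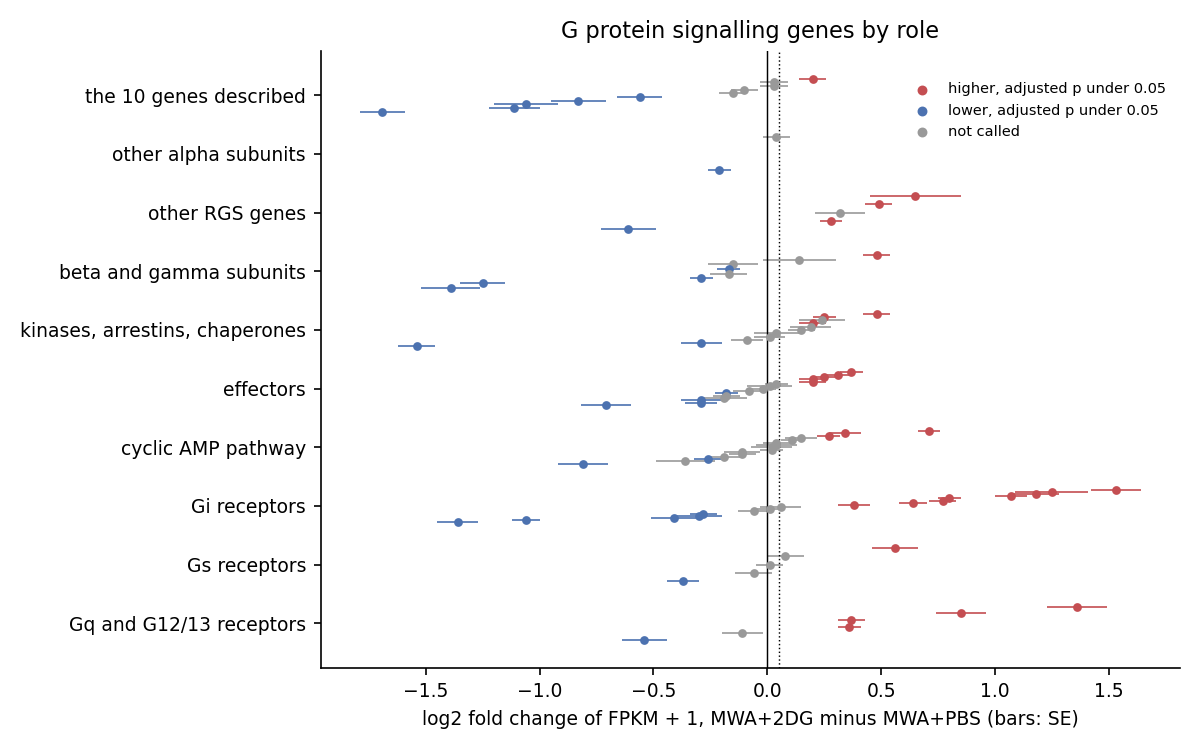
Log2 fold change of FPKM + 1, MWA+2DG minus MWA+PBS, for the 10 genes and for the other G protein signalling genes by role, with the SE as bars. Red and blue points were called higher and lower, grey points were not called, and the dotted line is the median of all genes (0.05). Gna12 lies at -1.69, on a scale that understates the change of genes at low levels, and the receptors coupled to Gi spread from -1.36 to 1.53. Scaling to T lineage genes would move every point to the left by 0.432, so points between 0 and 0.432 would change sign.

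Among the partners of the alpha subunits, 4 of 8 beta and gamma subunits were called lower and 1 was called higher. Gng12 fell from 6.4 ± 0.54 to 2.12 ± 0.332 FPKM (SD, n = 3 per group), a log2 fold change of -1.25 (limma, Benjamini-Hochberg adjusted p = 8.84e-05) and Gng11 from 2.96 ± 0.335 to 0.52 ± 0.226 (SD, n = 3 per group), a log2 fold change of -1.39 (adjusted p = 0.000181). Gnb1, the most abundant beta subunit in MWA+PBS, fell from 45.8 ± 1.13 to 37.3 ± 0.727 (SD, n = 3 per group), a log2 fold change of -0.29 (adjusted p = 0.00273). Gng2, a gamma subunit of T cells, rose from 12.1 ± 0.575 to 17.3 ± 0.942 (SD, n = 3 per group), a log2 fold change of 0.48 (adjusted p = 0.000886), a call lost with T lineage scaling (0.0514, adjusted p = 0.565). Of the other alpha subunits 2 were tested, and Gnas, the stimulatory subunit, fell from 28.4 ± 0.891 to 24.4 ± 0.513 (SD, n = 3 per group), a log2 fold change of -0.21 (adjusted p = 0.0134), a call lost without MWA+PBS sample 1 (-0.19) or MWA+2DG sample 4 (-0.19).

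Of 15 effectors, 5 were called higher and 4 lower, beside 22.3% and 17.1% of all genes tested. Arhgef1, an exchange factor of lymphocytes on which the products of Gna12 and Gna13 act, rose from 141.4 ± 4.08 to 176 ± 3.65 FPKM (SD, n = 3 per group), a log2 fold change of 0.31 (limma, Benjamini-Hochberg adjusted p = 0.00234, and -0.12 with T lineage scaling), while Arhgef12, another exchange factor of this class, fell from 3.26 ± 0.183 to 2.49 ± 0.309 (SD, n = 3 per group), a log2 fold change of -0.29 (adjusted p = 0.0372). The Arhgef12 call was lost with no filter (adjusted p = 0.0839) and without MWA+PBS sample 1 (-0.26) or 3 (-0.30) or MWA+2DG sample 4 (-0.22) or 6 (-0.33). For the Gq class, Plcb2 rose from 28.4 ± 1.54 to 32.7 ± 0.726 (SD, n = 3 per group), a log2 fold change of 0.20 (adjusted p = 0.0289, and -0.24 with T lineage scaling) and Plcb3 fell from 3.69 ± 0.08 to 2.84 ± 0.0603 (SD, n = 3 per group), a log2 fold change of -0.29 (adjusted p = 0.0109). Both encode phospholipase C beta enzymes. The Plcb2 call was lost with quantile normalization (0.18), median ratio scaling (0.15) and without MWA+PBS sample 1 (0.21) or any 1 MWA+2DG sample (0.18, 0.19 and 0.21). With T lineage scaling Plcb2 was called lower (limma, adjusted p = 0.0102), while Arhgef1 and Adcy7 were not called. Adcy7, an adenylyl cyclase, rose from 75 ± 3.02 to 97.4 ± 1.95 (SD, n = 3 per group), a log2 fold change of 0.37 (adjusted p = 0.00119, and -0.06 with T lineage scaling), and Pik3r6, a regulatory subunit of the PI3K that beta and gamma subunits activate, fell from 1.77 ± 0.222 to 0.693 ± 0.133 (SD, n = 3 per group), a log2 fold change of -0.71 (adjusted p = 0.00216).

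Of 11 receptor kinases, arrestins, chaperones and other modulators of G protein signalling, 3 were called higher and 2 lower. Grk3, a receptor kinase, fell from 5.74 ± 0.401 to 1.31 ± 0.105 FPKM (SD, n = 3 per group), a log2 fold change of -1.54 (limma, Benjamini-Hochberg adjusted p = 9.71e-06), and Grk6 rose from 60.6 ± 2.63 to 85.1 ± 3.36 (SD, n = 3 per group), a log2 fold change of 0.48 (adjusted p = 0.000503), a call lost with T lineage scaling (0.0516, adjusted p = 0.385). Grk2, the most abundant receptor kinase, averaged 114.8 ± 8.84 and 107.3 ± 1.8 (SD, n = 3 per group) and was not called (adjusted p = 0.299), but it was called lower with T lineage scaling (-0.53) and without MWA+PBS sample 2 (-0.16). Of the arrestins, which end receptor signalling, Arrb1 fell from 9.63 ± 0.917 to 7.71 ± 0.609 (SD, n = 3 per group), a log2 fold change of -0.29 (adjusted p = 0.034) and Arrb2 rose from 74.8 ± 1.22 to 89.3 ± 0.829 (SD, n = 3 per group), a log2 fold change of 0.25 (adjusted p = 0.00392, but called lower at -0.18 with T lineage scaling). Ric8a, a chaperone of alpha subunits including those of the G12 and Gq classes, rose from 8.58 ± 0.39 to 10 ± 0.556 (SD, n = 3 per group), a log2 fold change of 0.20 (adjusted p = 0.0437, but called lower at -0.23 with T lineage scaling). The Ric8a call was lost with median ratio scaling (0.15), quantile normalization (0.17), no filter (adjusted p = 0.0659), no trend (adjusted p = 0.0548) and without any 1 sample other than MWA+2DG sample 5 (0.17 to 0.23), and that of Arrb1 with no filter (adjusted p = 0.0721) and without any 1 sample other than MWA+PBS sample 2 (-0.32 to -0.23).

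In the cyclic AMP pathway, on which Gi and Gs subunits converge, 3 of 15 genes were called higher, 2 lower and 10 were not called. This is 33.3% called, beside 39.4% of all genes. Rapgef4, an exchange factor for Rap that cyclic AMP activates, rose from 9.9 ± 0.33 to 16.9 ± 0.51 FPKM (SD, n = 3 per group), a log2 fold change of 0.71 (limma, Benjamini-Hochberg adjusted p = 6.56e-05). Prkar2b, a regulatory subunit of protein kinase A, fell from 5.77 ± 0.467 to 2.89 ± 0.528 (SD, n = 3 per group), a log2 fold change of -0.81 (adjusted p = 0.00109). The other 3 called were Pde3b (-0.26, a call lost without MWA+2DG sample 4, at -0.23), Prkacb (0.27, but called lower at -0.16 with T lineage scaling) and Pde8a (0.34, but not called at -0.0888 with T lineage scaling).

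Receptors that signal through Gnai2 and Gnai3 were called in both directions. Of 16 receptors coupled to Gi, 8 were called higher, 5 lower and 3 were not called. Cxcr3, the receptor for interferon-induced chemokines, rose from 15.6 ± 2.48 to 46.6 ± 3.02 FPKM (SD, n = 3 per group), a log2 fold change of 1.53 (limma, Benjamini-Hochberg adjusted p = 4.08e-05). Cxcr6 rose from 10.7 ± 2.88 to 26.3 ± 0.939 (SD, n = 3 per group), a log2 fold change of 1.25 (adjusted p = 0.000877) and Cxcr5, the follicle-homing receptor that B cells also carry, from 2.48 ± 0.375 to 6.85 ± 0.621 (SD, n = 3 per group), a log2 fold change of 1.18 (adjusted p = 0.00012). Cxcr4, which binds CXCL12, fell from 128.2 ± 6.35 to 60.9 ± 3.23 (SD, n = 3 per group), a log2 fold change of -1.06 (adjusted p = 1.73e-05). P2ry12, an ADP receptor known from platelets and microglia, fell from 3.07 ± 0.271 to 0.58 ± 0.0458 (SD, n = 3 per group), a log2 fold change of -1.36 (adjusted p = 3.61e-05), and Ccr4 from 1.58 ± 0.207 to 0.933 ± 0.0862 (SD, n = 3 per group), a log2 fold change of -0.41 (adjusted p = 0.0154), a call lost without MWA+PBS sample 1 (-0.35) or MWA+2DG sample 6 (-0.38).

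Of 5 receptors coupled to Gs, 1 was called higher and 1 lower. Gpr65, a proton-sensing receptor, fell from 34 ± 2.64 to 26 ± 1.56 FPKM (SD, n = 3 per group), a log2 fold change of -0.37 (limma, Benjamini-Hochberg adjusted p = 0.00642), and Ptger2, a prostaglandin E2 receptor, rose from 0.62 ± 0.0265 to 1.38 ± 0.138 (SD, n = 3 per group), a log2 fold change of 0.56 (adjusted p = 0.00368), a call lost with T lineage scaling (0.12, adjusted p = 0.302). Of 6 receptors listed for the Gq and G12 classes, 4 were called higher and 1 lower, and with T lineage scaling 2 higher and 2 lower. On that scale F2r (-0.07) and F2rl1 were not called and Ptger1 (-0.54) was called lower. Lpar6, a lysophosphatidic acid receptor that couples to the G12 class, rose from 5.7 ± 1.01 to 11 ± 0.921 (SD, n = 3 per group), a log2 fold change of 0.85 (adjusted p = 0.000954), and F2rl1, a protease-activated receptor, from 9.34 ± 0.232 to 12.3 ± 0.752 (SD, n = 3 per group), a log2 fold change of 0.37 (adjusted p = 0.00297, and -0.0666 with T lineage scaling). P2ry1, an ADP receptor coupled to Gq, fell from 1.56 ± 0.165 to 0.767 ± 0.1 (SD, n = 3 per group), a log2 fold change of -0.54 (adjusted p = 0.00523). C5ar1, the C5a receptor of neutrophils and macrophages, which uses Gi as well as the subunit encoded by Gna15, rose from 0.367 ± 0.196 to 2.5 ± 0.189 (SD, n = 3 per group), a log2 fold change of 1.36 (adjusted p = 0.000182), beside the higher neutrophil marker sums given above.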

How the data were processed

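The authors purified CD8+ T cells from spleen with an isolation kit, made strand-marked poly(A) libraries with molecular identifiers and sequenced read pairs. Per the submitters' processing notes and the study's methods, reads were trimmed with cutadapt 1.9 or fastp, mapped with HISAT2 2.0.4 (build mm9 in the notes), and assembled with StringTie 1.3.4d. UMI-tools is named without its role, and the annotation was not given in the sources used here. FPKM is the deposited unit, computed by the authors with StringTie and ballgown. FPKM depends on what else each library holds and contains no counts, so depth is unknown.

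The files listed 28773 gene IDs, 28689 of them with a symbol in GENCODE M21, and 315 were at 0 in all 6 samples. Genes with a mean FPKM of at least 1 (12444) were fitted as log2(FPKM + 1) with limma 3.58.1 in R 4.3.3 (lmFit, eBayes with a trend). The model held the group alone and was tested from both sides, as MWA+2DG minus MWA+PBS. Genes were called at a Benjamini-Hochberg adjusted p under 0.05 over all genes tested. Groups came from the sample labels.

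The 10 genes and all lists were chosen with earlier results of these data known. Genes named from each pathway list were taken from the up to 3 called genes per direction with the largest log2 fold change and no overlap of groups, plus preset genes of each family. Eomes, Bst2, Itgax, F2r, Ptger1, Rgs11 and the genes overlapping Gna12 and Gna13 were named after their values were seen. Alternatives were no low-value filter, a pseudocount of 0.1, a minimum mean FPKM of 5, median ratio scaling, quantile normalization, scaling to 15 T lineage genes, eBayes without a trend, sample weights, each sample left out in turn, and the study's rule (P under 0.05 and a log2 fold change beyond 0.25). Promoter sequences were taken from RefSeq on GRCm38.p6.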

Additional observations from a re-analysis of the deposited data

How the results depend on the processing

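Depth is unknown, so what it limits could not be measured. No paired analysis was possible because the 2 groups share no sample number. The study's rule called 4752 genes. With a mean FPKM of at least 5, 2951 of 7313 genes and 31 of 54 pathway genes were called, fewer being tested. Among the pathway genes called, 57.1% were higher, 71% with that filter and 46.4% with no filter. Scaling to T lineage genes called 9083 genes, 470 higher and 8613 lower, and 68 pathway genes, 14.7% of them higher. It lowers all log2 fold changes by 0.432, and so turned those of genes called lower and of genes not called on that scale. Turned and called lower were Gnai3 (-0.40), Rgs10 (-0.40), Rgs14 (-0.23), Rgs19 (-0.15), Arrb2 (-0.18), Ric8a (-0.23), Prkacb (-0.16), Plcb2 (-0.24), Gna11 (-0.39) and Cd40lg (-0.34). Turned but not called were Adcy7 (-0.06), Arhgef1 (-0.12), Rock1 (-0.18), Pde8a (-0.0888), F2rl1 (-0.0666), Prdm1 (-0.25), F2r (-0.07), Rgs11 (-0.11), Gm11696 (-0.26) and Bst2 (-0.18). Median ratio scaling turned Gnai3 (-0.0189), Rgs10 (-0.0215) and Gna11 (-0.00635). Leaving out MWA+2DG sample 6 turned Gnai3 (-0.0115) and leaving out sample 4 turned Rgs10 (-0.0209), where the cause was not tested. With 1 sample left out, Gnai3 ran from -0.0115 to 0.064 and Rgs10 from -0.0209 to 0.059. Gna13 was called with median ratio scaling (-0.20), sample weights (-0.19) and T lineage scaling (-0.59), and Gnai2 with sample weights (-0.13), T lineage scaling (-0.53) and without MWA+PBS sample 2 (-0.16). With 1 sample left out, 3706 to 5195 genes, 38 to 50 pathway genes and 18 to 21 immediate early genes were called, and neighbouring genes that overlapped in level made 1 to 3 pairs for MWA+PBS and 1 to 2 pairs for MWA+2DG, down to 1 without MWA+PBS sample 2 and 1 without MWA+2DG sample 6, where the order also changed. Of the values of other genes named by rule under the alternatives, 756 kept their direction and their side of the threshold, 45 lost the call, 3 gained it and 14 turned. Genes named after their values were seen, such as F2r, Rgs11, Gm11696 and Bst2, are not in these counts.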
